A study of Mus musculus with 21 samples.

Results

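The 10 genes described here encode subunits of the AMPA and NMDA receptors, the ion channels that carry most excitatory transmission in the neocortex. They were chosen with earlier results of these data known and were found in the table by gene symbol, namely Gria1 to Gria4 for the AMPA receptor and Grin1, Grin2a to Grin2d and Grin3a for the NMDA receptor. All 10 symbols had a row of their own among the 48474 rows of the count table, and all 10 were among the 18248 genes with enough counts to be tested. Bulk RNAseq had been done on neocortex of 21 mice, 11 labelled WT and 10 labelled TG, in independent cohorts called batch A (4 WT and 3 TG) and batch B (7 WT and 7 TG).

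TG mice were bigenic rNLS8 animals on a C57BL/6J background, in which the NEFH-tTA line 8 driver switches on tetO-hTDP-43ΔNLS line 4. This transgene is a human TDP-43 whose nuclear localization signal is disabled, and the neurofilament heavy chain promoter restricts it largely to neurons. WT mice were their littermates, described by the submitters as monogenic controls, so that a WT animal may carry either transgene without the other. Every animal of both groups received an antisense oligonucleotide without a target (non-targeting ASO), 350 µg in 10 µL injected into a cerebral ventricle, at 17 to 19 weeks of age. Doxycycline, which holds the transgene silent, was fed at 200 mg/kg until 2 weeks later, and tissue was taken after a further 3 weeks without it. Mice without ASO or with the transgene kept silent were not analysed here, and sex is not labelled. The labels name neocortex, the methods name brain cortex, and a figure legend of the study names hippocampus for rNLS8 mice. Markers of excitatory neurons (Tbr1, Neurod6, Slc17a7) had counts in every mouse, which does not tell neocortex from hippocampus. The summed normalized count of 5 dentate gyrus markers was at most 935 in any mouse, and no marker of the hippocampal CA fields was examined. The sum of 5 striatal markers ranged from 1678 to 12925 normalized counts in WT and from 1527 to 10426 in TG mice, and its part in the results below was not tested.

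AMPA receptors are tetramers of GluA1 to GluA4 (Gria1 to Gria4) that open within milliseconds of glutamate binding. RNA editing of a single codon in the pore of GluA2, carried out mainly by the enzyme encoded by Adarb1, keeps GluA2-containing channels nearly closed to calcium. NMDA receptors pass calcium only when glutamate release coincides with depolarization. Each contains GluN1 (Grin1), together with GluN2 subunits that bind glutamate and set the channel's kinetics, or with GluN3 subunits that bind glycine. In the adult forebrain GluN2A (Grin2a) and GluN2B (Grin2b) predominate, GluN2C (Grin2c) is better known from cerebellar granule cells and glia, and GluN2D (Grin2d) from interneurons and early development.

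Between 20700912 and 22263809 reads per mouse had been counted on genes. A normalized count, used below, is the read count divided by the effective library size of that mouse (TMM method) and multiplied by the mean over mice. Genotypes were compared with edgeR's quasi-likelihood test with batch as covariate, and p-values were adjusted over all 18248 genes. At an adjusted p under 0.05, 44.7% of all tested genes differed, 21.7% lower and 23.0% higher in TG mice, and the median log2 fold change over all genes was -0.000675. As a check of the labels, normalized counts of Tardbp, the mouse gene to which reads of the human transgene may also align, were 2253 to 2827 in WT mice and 4405 to 5053 in the 7 TG mice of batch B. In batch A they were 2903 in TG mouse T61342 (mice are named by their library labels), 3091 in TG mouse T60303 and 2363 in TG mouse T61340, which lay within the WT range. The library labelled TG of mouse T61340 therefore went against its label by this gene. Its normalized counts were 1560 for Lamp5 (2484 or more in every WT mouse) and 29485 for Snap25 (40273 or more). Gfap, at 6817 against 4386 or fewer, was also on the TG side. These markers were named after their values were seen. For Lamp5 and Snap25 every TG mouse lay below every WT mouse, as for 3.80% of all tested genes. They are therefore no independent check of the label of this library. Mouse T61340 also stood apart for the subunits, so each subunit is given with and without it.

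The 4 AMPA receptor genes share the stretch of coding sequence around the pore codon named above, which is printed here because Gria2 alone among them is edited there and because Adarb1 was lower in TG mice, as described further on. The sequences are the sense strand of the GENCODE M21 transcripts (GRCm38), 51 bases each within 1 exon, and capitals mark the codon at the Q/R site, the position of this editing. Gria1 lies at chr11:57243058-57243108 (plus strand, exon 11 of 16, codon 600), Gria2 at chr3:80706899-80706949 (minus strand, exon 11 of 16, codon 607), Gria3 at chrX:41610229-41610279 (plus strand, exon 11 of 16, codon 612) and Gria4 at chr9:4464125-4464175 (minus strand, exon 12 of 17, codon 608).
Gria1: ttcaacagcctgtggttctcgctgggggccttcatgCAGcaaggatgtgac
Gria2: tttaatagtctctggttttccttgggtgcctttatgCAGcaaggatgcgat
Gria3: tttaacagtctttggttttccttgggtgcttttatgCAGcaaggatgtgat
Gria4: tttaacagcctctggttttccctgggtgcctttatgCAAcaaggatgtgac
Every codon at the site reads glutamine in the genome, as CAG in Gria1, Gria2 and Gria3 and as CAA in Gria4. Gria2 and Gria3 were the most alike in this stretch, with 47 of 51 bases the same, and Gria1 and Gria2 the least, with 40 of 51. The deposited values are counts per gene, so the edited share of Gria2 RNA was not analysed here. No 100-base stretch, the length of a read, of any subunit's longest coding transcript occurred in another subunit, so that the 10 genes could be counted apart from each other.

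In TG mice the subunit RNAs did not move as a block. Gria3, Grin2a, Grin2b, Grin3a and Gria1 fell, Grin1 and Grin2d rose, and Gria2, Gria4 and Grin2c did not pass the test. Thus 7 of 10 subunits differed between genotypes, 5 lower and 2 higher, where 44.7% of all tested genes differed. The median log2 fold change over the 10 genes was -0.22. In whole tissue, fewer cells of a type and less RNA per cell cannot be told apart, and this holds for every value below. Some markers of cell types differed with genotype as well, where 21.7% of all tested genes were lower and 23.0% higher in TG mice. Of 6 pan-neuronal markers 3 were lower in TG mice (Snap25, Syt1 and Map2) and none was higher. Rbfox3, Tubb3 and Eno2 did not pass (edgeR adjusted p of 0.189 or more). The summed normalized counts of all 6, mostly from Snap25, Syt1 and Map2, were 113574 to 144651 in WT and 82665 to 105349 in TG mice. All 7 inhibitory neuron markers were lower, with sums of 16539 to 26017 in WT and 10954 to 17781 in TG mice. Of 6 excitatory neuron markers 2 were lower (Camk2a and Neurod6) and 1 was higher. Without mouse T61340 the lower markers were 4 pan-neuronal, 6 inhibitory and 3 excitatory ones. Of 6 astrocyte markers 4 were lower (Slc1a2, Gja1, Aqp4 and Slc1a3), 1, Gfap, was higher, and Aldoc did not pass (edgeR adjusted p = 0.955). Their sums, mostly from Slc1a2, were 104535 to 131885 in WT and 92469 to 116913 in TG mice. Of 6 microglia markers 4 were higher, Aif1 and Tmem119 among them, and 1, P2ry12, was lower, with sums of 6705 to 7631 and 7014 to 9556. These astrocyte and microglia counts were the same without mouse T61340. Of 4 endothelial markers 1 was lower, and among the markers of oligodendrocytes and their precursors the lowest edgeR adjusted p was 0.181. The part of these differences in the subunit results was not tested.

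**Figure D1:**
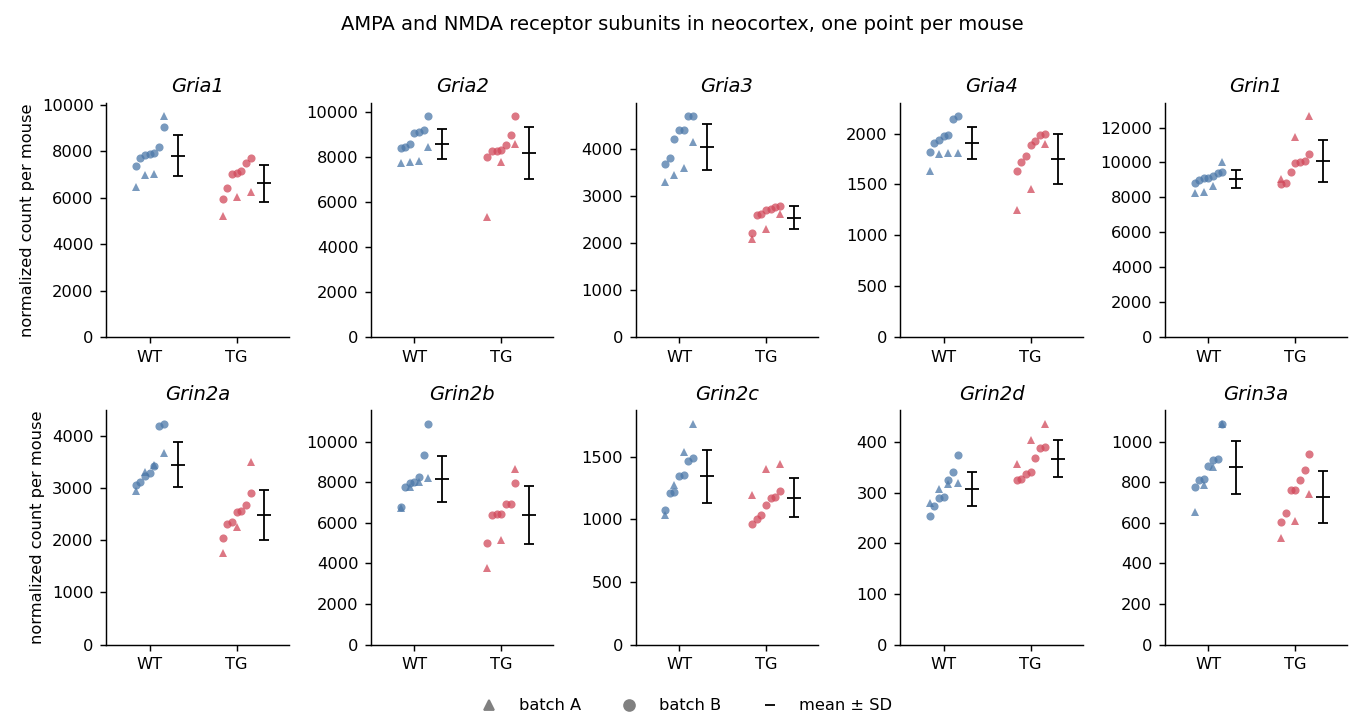
Normalized counts (vertical axes, from 0) of the 10 subunit genes in neocortex of 11 WT (blue) and 10 TG (red) mice, 1 point per mouse, triangles for batch A and circles for batch B, with the mean and SD of each group beside the points. Gria3 is the gene whose groups do not overlap, and the low triangle of Gria2 at 5328 is TG mouse T61340.

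Among the AMPA receptor subunits, Gria3 showed the largest difference. It is the X-linked gene of GluA3, which in cortical pyramidal neurons mostly pairs with GluA2. In WT mice its normalized counts were 3299 at the lowest, 4150 at the median and 4691 at the highest, and in TG mice 2083, 2608 and 2790. Every TG mouse lay below every WT mouse, which was true of 3.80% of all tested genes in this direction, while 3.85% were without overlap in the other. The log2 fold change was -0.68 (SE 0.056, 0.624-fold, edgeR adjusted p = 8.24e-10). Within batch A the WT mice had 3299, 3443, 3594 and 4150 normalized counts and the TG mice 2083, 2289 and 2614. Gria3 had adjusted p-values of 0.00844 in batch A (log2 fold change -0.61, edgeR, 4 WT and 3 TG mice) and 7.11e-08 in batch B (-0.71). Without mouse T61340 its log2 fold change was -0.66 (adjusted p = 2.31e-09), and since Gria3 is X-linked and sex is not labelled, the level of Xist was added to the model after the data had been seen, which gave a log2 fold change of -0.69 (adjusted p = 2.01e-09).

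Gria1, the subunit of GluA1 that is best known for its activity-dependent insertion at synapses, was lower by a smaller amount. Its normalized counts were 6470, 7855 and 9526 in WT mice (lowest, median, highest) and 5198, 6720 and 7709 in TG mice. All 10 TG mice lay below the WT median and 5 below the lowest WT mouse. The log2 fold change was -0.25 (SE 0.064, 0.839-fold, edgeR adjusted p = 0.00218). The batch B mice alone gave -0.21 (edgeR adjusted p = 0.00815), and those of batch A -0.34 (adjusted p = 0.145). Without mouse T61340 the log2 fold change was -0.25 (adjusted p = 0.00365).

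Gria2, which confers the low calcium permeability, did not pass the test. Its normalized counts were 7753, 8473 and 9824 in WT mice and 5328, 8302 and 9833 in TG mice, and the groups overlapped over almost the whole WT range. The log2 fold change was -0.08 (SE 0.061, edgeR adjusted p = 0.278). The 5328 belongs to mouse T61340, and the other 9 TG mice had between 7773 and 9833. Without that mouse the log2 fold change was -0.03 (SE 0.043, adjusted p = 0.598).

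Gria4, the subunit of GluA4 found mainly in parvalbumin interneurons of the adult cortex, was at 1630, 1910 and 2171 normalized counts in WT mice and 1244, 1834 and 1999 in TG mice. Its log2 fold change of -0.14 (SE 0.058) missed the threshold narrowly (edgeR adjusted p = 0.0555). The call turned with the processing, with adjusted p = 0.038 under upper quartile scaling and 0.0467 in DESeq2 with batch, but 0.181 in edgeR without batch and 0.406 when libraries were scaled by size alone, which brought the log2 fold change to -0.06. It was also called without TG mouse T_70267, T_69524 or T61342 or without WT mouse T_69523, at adjusted p-values down to 0.00799, and without TG mouse T61340 it was at -0.10 (adjusted p = 0.115).

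The make-up of the AMPA receptor RNA differed between the groups. Gria3 held 18.0% ± 1.5 (SD, n = 11) of the normalized counts of the 4 genes in WT mice and 13.3% ± 0.66 (SD, n = 10) in TG mice, and the ranges of 15.3 to 19.9% and 12.5 to 14.4% did not overlap. The share of Gria2 was 38.5% ± 1.7 (SD, n = 11) and 42.8% ± 2.8 (SD, n = 10), that of Gria4 8.54% ± 0.46 and 9.15% ± 0.48, and that of Gria1 35.0% ± 3.2 and 34.8% ± 2.8. These shares add up to the whole, so that a lower Gria3 raises the others, and they were given no test. The counts of the 4 genes summed to a median of 22757 per WT mouse and 19578 per TG mouse.

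Among the NMDA receptor subunits, the obligatory GluN1 gene Grin1 went up while the GluN2A and GluN2B genes went down. Normalized counts of Grin1 were 8250, 9095 and 10002 in WT mice (lowest, median, highest) and 8786, 10002 and 12658 in TG mice. The groups overlapped, but 5 of 10 TG mice lay above the highest WT mouse. The log2 fold change was 0.16 (SE 0.056, 1.12-fold, edgeR adjusted p = 0.022). This call rested on mouse T61340, the highest of the TG mice, and without it the log2 fold change was 0.12 (SE 0.049, adjusted p = 0.0518). The 3 TG mice of batch A had 9043, 11434 and 12658 normalized counts and the 4 WT mice 8250, 8300, 8661 and 10002, whereas in batch B the medians were 9953 and 9124. Grin1 passed the threshold in neither batch alone, with log2 fold changes of 0.35 in batch A (edgeR adjusted p = 0.116) and 0.07 in batch B (adjusted p = 0.207).

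Grin2a showed the largest fall of the NMDA receptor genes. Its normalized counts were 2947, 3314 and 4234 in WT mice and 1755, 2439 and 3493 in TG mice. Of the 10 TG mice 9 lay below the lowest WT mouse, and the exception, at 3493, was mouse T61342 of batch A. The log2 fold change was -0.47 (SE 0.092, 0.721-fold, edgeR adjusted p = 0.000185), and -0.42 without mouse T61340 (adjusted p = 0.000282). It was -0.51 in batch B (edgeR adjusted p = 0.000124) and -0.40 in batch A, where the TG mice were spread over 1755, 2246 and 3493 and the test was not passed (adjusted p = 0.206).

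Grin2b, whose product GluN2B dominates early in life and stays abundant in the adult forebrain, was at 6743, 8008 and 10892 normalized counts in WT mice and 3790, 6459 and 8678 in TG mice. Of the TG mice 9 lay below the WT median and 6 below the lowest WT mouse. Its log2 fold change was -0.37 (SE 0.106, 0.776-fold, edgeR adjusted p = 0.00686). Without mouse T61340, which held the 3790, it was -0.30 (adjusted p = 0.0114). Batch B gave -0.36 (edgeR adjusted p = 0.00583) and batch A -0.37 (adjusted p = 0.32), similar in size with a larger SE of 0.222 against 0.097.

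Grin2d, a low-abundance transcript here, was the subunit with the largest increase. Its normalized counts were 253, 306 and 373 in WT mice and 324, 363 and 436 in TG mice, and all 10 TG mice lay above the WT median. The log2 fold change was 0.265 (SE 0.065, 1.20-fold, edgeR adjusted p = 0.00178), and 0.24 without mouse T61340 (adjusted p = 0.0043). Over all mice the groups overlapped, with 4 of 10 TG mice above the highest WT mouse. In batch A the TG mice had 357, 403 and 436 normalized counts and the WT mice 280, 306, 316 and 319. Grin2d was at the threshold in each batch, with adjusted p = 0.0496 in batch A (log2 fold change 0.41, edgeR) and 0.0601 in batch B (0.20).

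Grin3a, the gene of the glycine-binding GluN3A, which lowers the calcium flux of the receptors that hold it, was lower. Its normalized counts were 655, 874 and 1088 in WT mice and 526, 753 and 938 in TG mice, and 9 of 10 TG mice lay below the WT median. The log2 fold change was -0.28 (SE 0.091, 0.825-fold, edgeR adjusted p = 0.0148), neither batch by itself passed the threshold (adjusted p = 0.135 for A and 0.078 for B), and the call was lost when libraries were scaled by size alone (-0.20, adjusted p = 0.067). Without mouse T61340 Grin3a was at -0.23 (SE 0.089, adjusted p = 0.0341). Grin2c had 1033, 1344 and 1764 normalized counts in WT mice and 965, 1174 and 1438 in TG mice. Its log2 fold change of -0.19 (SE 0.078) was just short of the threshold over all mice (edgeR adjusted p = 0.053), and it was -0.18 without mouse T61340 (adjusted p = 0.0816). The batches differed in value, with -0.26 in batch B (adjusted p = 0.00672) and -0.04 in batch A (adjusted p = 0.918). The call was made with RLE scaling (adjusted p = 0.0495) and in DESeq2 with batch (0.043), but scaling by library size alone gave -0.11 (adjusted p = 0.268). It was also made without WT mouse T_70264, T61334 or T61345 or without TG mouse T_70261, T60303 or T61342, at adjusted p-values down to 0.00629.

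**Figure D2:**
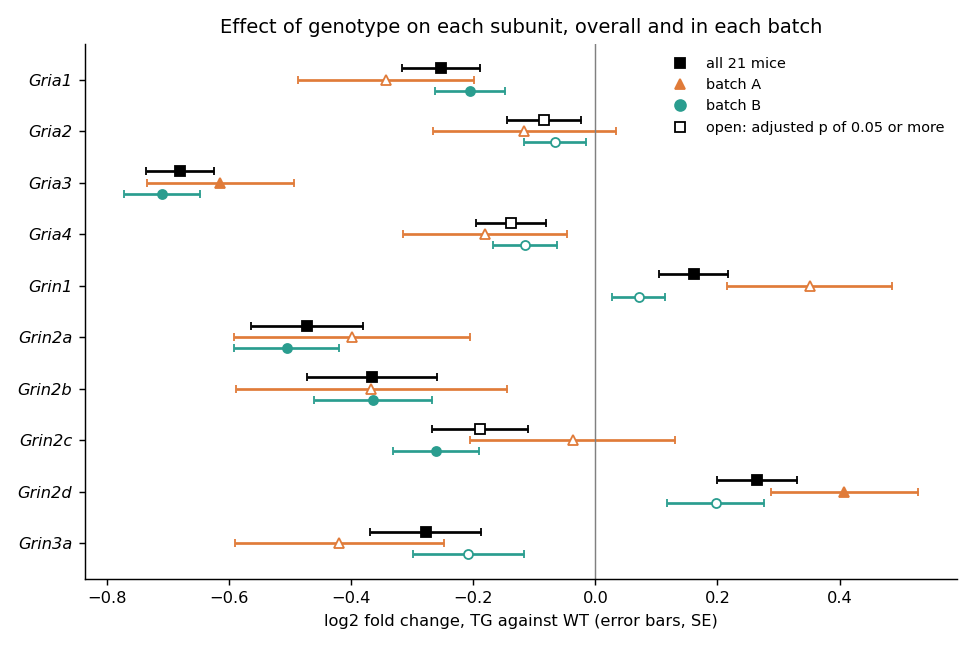
Log2 fold change of TG against WT (horizontal axis, error bars SE) for each subunit gene over all 21 mice (black squares), in batch A (orange triangles) and in batch B (green circles), filled where the edgeR adjusted p is below 0.05. Gria3 is the gene with filled symbols in all 3 fits, at -0.68, -0.61 and -0.71.

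The cohorts were compared gene by gene. Every subunit had the same sign in both batches, and error bars were wider in batch A, with its 7 mice, than in batch B, with its 14. Of the 10 subunits 2 were called in batch A alone (Gria3 and Grin2d), where 11.8% of 18580 tested genes were called, and 5 in batch B alone (Gria1, Gria3, Grin2a, Grin2b and Grin2c), where 39.1% of 18220 were. The difference between the batches was tested as the interaction of genotype and batch. By edgeR's interaction test 0 of 18248 genes, or 0%, were called, while 1030 had an unadjusted p under 0.05, and leaving out TG mouse T60303, WT mouse T61345 or WT mouse T61333 gave 1 gene. Grin1 was the subunit with the lowest p, its effect being higher in A than in B by 0.25 on the log2 scale (SE 0.111, unadjusted p = 0.0351, edgeR adjusted p = 0.855). Leaving out each mouse in turn, this difference for Grin1 ranged from 0.139 to 0.374, with edgeR adjusted p of 0.333 or more. For Tardbp the log2 fold change was 0.26 in batch A and 0.79 in batch B, with an edgeR adjusted p = 0.133 for the difference.

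Ratios of subunits counted in the same mouse do not depend on how libraries are scaled. The log2 ratio of Grin2a to Grin2b reads, a pair whose balance shifts with development, was -1.24 ± 0.092 (SD, n = 11) in WT mice and -1.35 ± 0.12 (SD, n = 10) in TG mice. The difference was -0.10 (exact permutation test of genotype within batch, two-sided, p = 0.0167, and 0.0334 adjusted over the 2 ratios). The groups overlapped, with -1.41 to -1.12 in WT and -1.48 to -1.11 in TG mice, and 4 TG mice lay below every WT mouse. The difference was seen in batch B (-0.14, exact permutation p = 0.0146) and was close to 0 in batch A (-0.01, exact permutation p = 0.943, where the smallest p possible is 0.0286). Without mouse T61340 it was -0.13 (exact permutation p = 0.00392). The log2 ratio of Gria1 to Gria2 was -0.14 ± 0.19 (SD, n = 11) in WT mice and -0.30 ± 0.21 (SD, n = 10) in TG mice. This difference of -0.16 did not pass (exact permutation test within batch, two-sided, p = 0.0962 adjusted over the 2 ratios). Mouse T61340 was the highest TG mouse at 0.18, and the difference without it was -0.21 (exact permutation p = 0.00903).

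**Figure D3:**
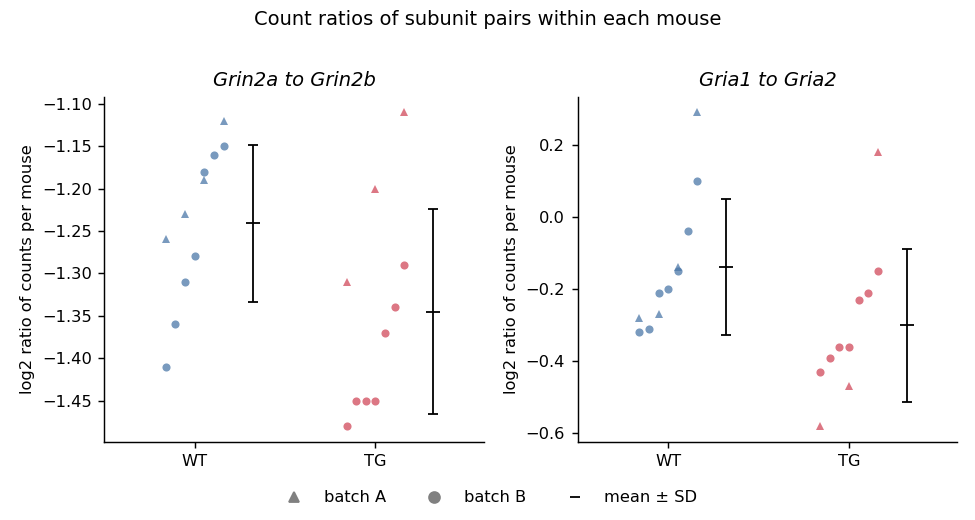
Log2 ratio of read counts (vertical axes, which do not start at 0) of Grin2a to Grin2b and of Gria1 to Gria2 in each WT (blue) and TG (red) mouse, triangles for batch A and circles for batch B, with the mean and SD beside the points. In both panels the highest TG point, at -1.11 and 0.18, is mouse T61340.

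The library labelled TG of mouse T61340 held the lowest count of all TG mice for Gria2, Gria3, Gria4, Grin2a, Grin2b and Grin3a and the highest for Grin1 and Grin2d. Against the mean of the other 9 TG mice its difference on the log2 scale was -0.79 for Grin2b, -0.67 for Gria2, -0.53 for Gria4 and 0.37 for Grin1. Its depth, 21155466 counts, did not set it apart. Gene length moved with this pattern. Over all tested genes with an annotated span, the median difference between this mouse and the other TG mice was 0.22 for genes spanning under 10 kb and fell through 0.06, -0.14 and -0.28 to -0.40 for those over 300 kb. RNA quality per mouse was not analysed here beyond the study's statement that RNA integrity numbers were above 7. Without this mouse, 6 of 10 subunits were called, 5 lower and 1 higher, where 45.6% of all tested genes were, and Grin1 was the call that was lost.

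The subunit genes differ greatly in the length of genome they cover, from 18.1 kb for Grin2c to 460 kb for Grin2b. The genes that rose were Grin1 (28.0 kb, chromosome 2) and Grin2d (39.3 kb, chromosome 7), while the shortest, Grin2c, was at -0.19 without passing the test, and the 5 that fell span 184 kb (Grin3a) to 460 kb. Gria4, at 378 kb longer than 3 of these 5, and Gria2, at 123 kb, did not pass the test. Long genes tended to be lower in TG mice, although most of them were not called lower. The median log2 fold change was 0.01 for 5329 genes under 10 kb, 0.04 for 5239 genes of 10 to 30 kb, -0.01 for 4359 genes of 30 to 100 kb, -0.09 for 1761 genes of 100 to 300 kb and -0.14 for 535 genes over 300 kb. Of the genes over 300 kb, 40.4% were called lower and 5.79% higher, against 19.9% and 23.9% of those under 10 kb, and without mouse T61340 the shares over 300 kb were 38.3% and 8.60%. Set against genes of the same span range, Gria3 was among the lowest 2.10%, Grin2a stood at the percentile 13.5, Grin2b at 20.2, Grin3a at 21.2 and Gria1 at 33.5. Gria2 and Gria4, at 50.6 and 50.3, were at the middle of their ranges, Grin2c was at 19.3, Grin1 at 69.0 and Grin2d at 87.0. Spans were available for 94.4% of tested genes (RefSeq, GRCm38.p6), and the part of gene length in the subunit results was not tested.

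**Figure D4:**
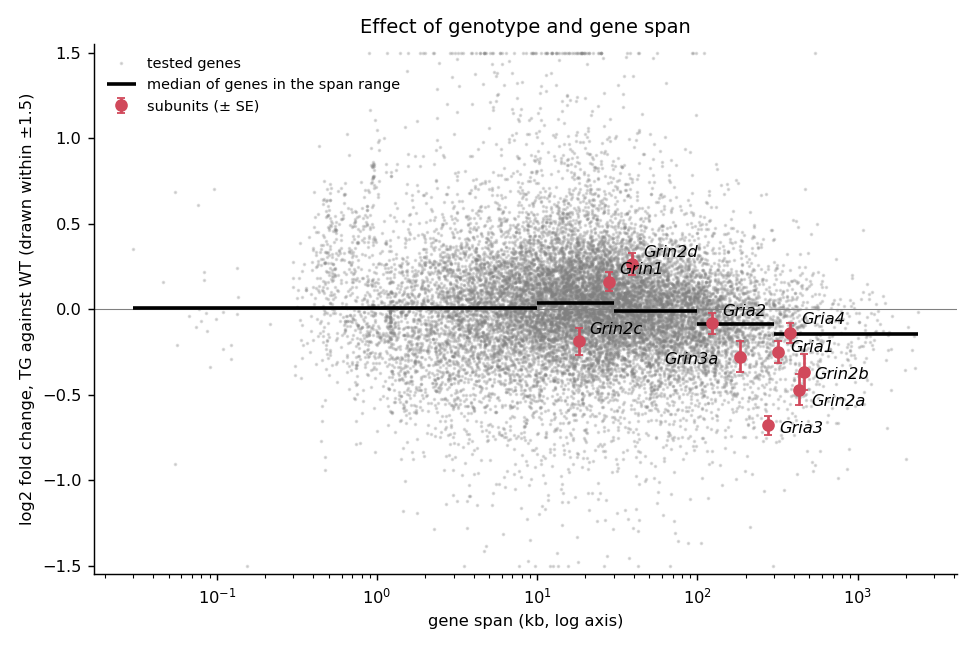
Log2 fold change of TG against WT (vertical axis, values beyond 1.5 drawn at 1.5) by gene span in kb (horizontal log axis) for all tested genes with a span (grey), the median in each of 5 span ranges (black lines) and the 10 subunit genes with SE (red). The medians fall to -0.14 above 300 kb, and Gria3 lies at -0.68 below the line of its range.

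Levels of different subunits can be compared per length of transcript. Per kb of the exons of all coding transcripts, Grin1 was the most abundant in WT mice with 2070 ± 118 (SD, n = 11) normalized counts, followed by Gria1 with 1330 ± 151, Gria2 with 820 ± 63.1 and Gria3 with 733 ± 89.6. Then came Grin2b with 329 ± 46.4, Gria4 with 303 ± 25.1, Grin2c with 267 ± 42.5, Grin2a with 230 ± 28.6, Grin3a with 116 ± 17.3 and Grin2d with 46.0 ± 5.04 per kb. Neighbours in this order whose ranges overlapped in WT mice were Gria2 and Gria3, and the run from Grin2b to Grin2a. In TG mice Gria3 stood at 461 ± 45.1 (SD, n = 10) per kb with at most 507 in any mouse, and Gria2 had at least 508, so the pair did not overlap there. The 508 was that of mouse T61340, the TG mouse with the lowest Gria2 count. The order rests on the length used, as Gria2, Grin2a and Grin2b have long untranslated regions. Per kb of coding sequence Gria2 came first in WT mice (3240 ± 250), then Grin1 (3140 ± 179) and Gria1 (2870 ± 328), while in TG mice Grin1 (3510 ± 423, SD, n = 10) exceeded Gria2 (3090 ± 437) in the mean with overlapping ranges.

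Mice that were high for one subunit were not high for all. After removal of the genotype and batch means, Pearson's r between subunits over the 21 mice ranged from -0.54 (Gria1 and Grin2c) to 0.96 (Grin2a and Grin2b), with a median of 0.18 over 45 pairs. Without mouse T61340 the range was -0.53 to 0.94 and the median 0.37. Among 14574 other genes with a mean of at least 50 counts, the one most like Grin2b was Bmpr2 (r = 0.96), that most like Gria2 was Dmxl1 (0.95) and that most like Grin2a was Kcnma1 (0.94). For Grin1 it was Pacs1 (0.91), for Gria1 Gprasp1 (0.89), for Gria4 Gabrb2 (0.89), for Grin3a Adcyap1r1 (0.88), for Grin2c Slc2a4rg-ps (0.87), for Gria3 Mybl1 (0.85) and for Grin2d Fam20c (0.81). Without mouse T61340 the most alike gene stayed the same for Gria1, Grin1, Grin2a and Grin2b and became another for the other 6 subunits, namely Lmbrd2-2 for Gria2 (0.85), Gm20063 for Gria3 (0.92), Slitrk5 for Gria4 (0.85), Mapk8ip1 for Grin2c (0.91), Lgr5 for Grin2d (0.82) and Wdr6 for Grin3a (0.91). These are the highest of many values from the same 21 libraries, which share depth and RNA quality, and describe these mice.

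Genes that act with the subunits were examined in 5 lists with 50 genes in all, of which 48 were tested. In TG mice 26 of the 48 were lower and 5 higher, where 21.7% of all tested genes were lower and 23.0% higher, and the median log2 fold change was -0.18. Without mouse T61340 the counts were 25 and 3, the calls lost being those of Grik4, Cacng2 and Cacng5. In batch A alone 8 were called, where 11.8% of all tested genes were. Of the remaining ionotropic subunits, Grik5 (log2 fold change 0.28, SE 0.049, edgeR adjusted p = 6.19e-05) and Grik4 (0.16, SE 0.061, adjusted p = 0.0372) were higher, both encoding kainate receptor subunits of high affinity, and the other 5 tested did not pass. Grik4 was at adjusted p = 0.0599 without mouse T61340. Grin3b, the NMDA receptor subunit outside the 10, had 2 to 13 counts per mouse and was not tested.

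Auxiliary and assembly proteins of the AMPA receptor differed in both directions, with 8 of 15 lower and 2 higher (21.7% and 23.0% of all tested genes). Frrs1l, needed to assemble the receptor in the endoplasmic reticulum, had 3192 to 4731 normalized counts in WT and 972 to 3042 in TG mice (log2 fold change -0.63, SE 0.12, edgeR adjusted p = 9.74e-05). Its groups did not overlap, as for 3.80% of all tested genes in this direction. Gsg1l, a subunit that slows recovery from desensitization, was lower (log2 fold change -0.44, adjusted p = 3.43e-06), and Cnih2, which promotes export and slows the channel, was lower as well (-0.34, adjusted p = 2.63e-05). Of the 6 TARP genes of the list, 4 were lower and 2 higher. The lower ones were Cacng5 (-0.39, adjusted p = 0.043, and 0.0679 without mouse T61340), Cacng8 (-0.32, adjusted p = 0.000336), Cacng4 (-0.285, adjusted p = 0.0151) and Cacng3 (-0.20, adjusted p = 0.0405). The higher ones were Cacng7 (0.32, adjusted p = 0.00158) and Cacng2, or stargazin (0.16, adjusted p = 0.0357, and 0.0878 without mouse T61340). Cacng7 and Cacng8 have a further copy row in the table, which could split their reads. Scaling by library size alone left 6 of this list called.

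Of 14 anchoring, trafficking and kinase partners 9 were lower, against 21.7% of all tested genes, and 1, Grip1, was higher (0.13, edgeR adjusted p = 0.031). Camk2a, the kinase of synaptic potentiation that docks on GluN2B, had 69727 to 114592 normalized counts in WT and 43105 to 64634 in TG mice (log2 fold change -0.65, SE 0.058, adjusted p = 2.69e-09). Camk2b was lower too (-0.43, adjusted p = 3.97e-07), and so were the scaffold genes Dlg3 (-0.43, adjusted p = 7.66e-08), Dlg2 (-0.36, adjusted p = 2.15e-05) and Dlg1 (-0.34, adjusted p = 5.03e-07). For these 5 of the 14 genes every TG mouse lay below every WT mouse, as for 3.80% of all tested genes.

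Of the 3 genes of the RNA editing enzymes, Adarb1, the enzyme of the Gria2 pore codon printed above, had 4453 to 7058 normalized counts in WT and 3412 to 4468 in TG mice (log2 fold change -0.35, SE 0.064, edgeR adjusted p = 7.91e-05). Adarb2, a brain-specific relative without known catalytic activity, was lower too (-0.30, adjusted p = 0.00788), and Adar was at -0.02 (SE 0.046, adjusted p = 0.722). Among genes of glutamate and D-serine supply and uptake 7 of 9 tested were lower, against 21.7% of all tested genes, and none was higher. Slc17a6, a vesicular glutamate transporter, had 416 to 1085 normalized counts in WT mice and 200 to 774 in TG mice, with overlap (log2 fold change -0.74, SE 0.16, edgeR adjusted p = 0.000719). Slc1a2, the main astrocytic glutamate transporter, was at -0.32 (adjusted p = 0.000266) and Srr, the enzyme that makes the co-agonist D-serine, at -0.31 (adjusted p = 2.43e-08). Slc17a7, the principal vesicular transporter of cortical excitatory neurons, was at 0.06 (SE 0.071, adjusted p = 0.561).

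**Figure D5:**
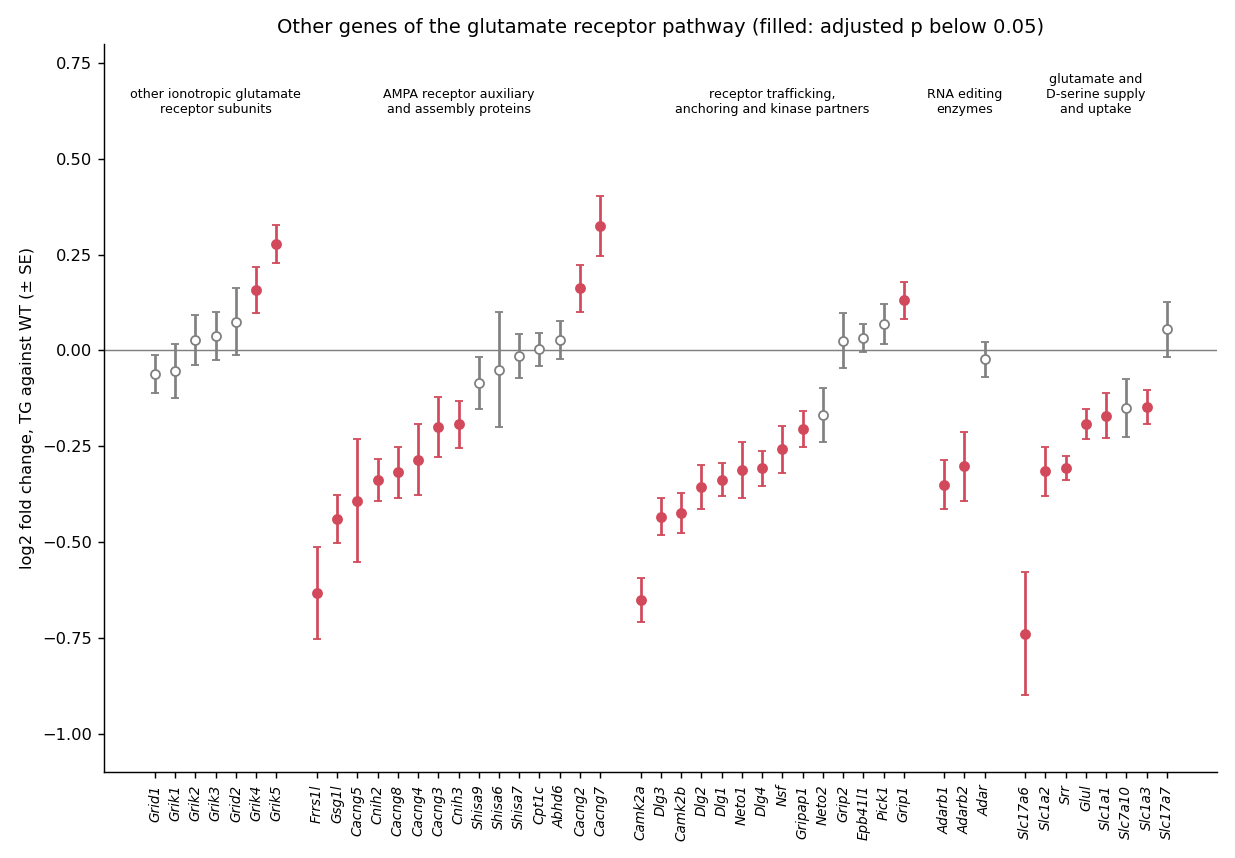
Log2 fold change of TG against WT with SE (vertical axis) for 47 genes that act with the receptors, grouped by list and ordered within it, filled red where the edgeR adjusted p is below 0.05. Of the 30 filled points 25 lie below 0, with Slc17a6 the lowest at -0.74, and Cacng7 is the highest at 0.32.

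Counting of 4 subunits could include reads of other genes, since the sources used here do not state whether reads were assigned by strand. Of the 100-base stretches of the Grin1 transcript 8.52% also lie in the antisense gene Grin1os, which had 121 to 374 normalized counts per TG mouse and did not pass the test (log2 fold change -0.02, edgeR adjusted p = 0.934). Grin2d shares 6.56% of its stretches with the antisense gene Gm45441 and Grin2b 0.184% with Gm14329. Grin2a shares 13.3% with Gm7328, which holds them on the same strand. Gm7328 had a mean of 406 normalized counts in WT and 283 in TG mice (log2 fold change -0.52, SE 0.17, adjusted p = 0.0161), close to that of Grin2a, and reads of the shared stretches cannot be assigned to either gene from the counts.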

How the data were processed

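mRNA of 21 mouse neocortex samples with RNA integrity numbers above 7 was sequenced at BGI as paired-end reads of 100 bp. The deposited values are raw counts of reads, 1 row for each symbol, which the authors made from alignments to GRCm38. The submitters' processing notes name HISAT, HISAT2, Bowtie, Bowtie2 and RSEM without roles, and the program that gave these counts is not given in the sources used here. Another 2553 rows were further copies of symbols, none of them of a subunit. Groups, batches and mouse numbers came from the labels, and 0 columns were left unused.

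Counts were analysed in R 4.3.3 with edgeR 4.0.16 (filterByExpr with a minimum count of 10 and a total of 15, TMM, quasi-likelihood test, genotype and batch, Benjamini-Hochberg adjustment, threshold 0.05), and DESeq2 1.42.0 was an alternative. SEs were derived from the fold change and the F statistic. Ratios of subunits were tested by all 120120 arrangements of genotype within batch. Likeness used log2 CPM with a prior count of 2. The procedure was tested on simulated data. The 10 subunits and all lists were chosen with earlier results of these data known. Besides all subunits, genes were named by a rule, namely up to 4 called genes of each list with the largest fold change and the same direction in each batch, and the gene most like each subunit. Cacng2, Cacng3, Cacng4, Cacng7, Cacng8, Dlg1, Grip1, Slc17a7, Adar, Grin3b, single markers and the genes that share sequence with subunits were named after their values were seen. Alternatives were other scalings, filters, covariates and tools, each batch alone and leaving out each mouse. Library depth differed by little, and p-values measure the spread between mice. Some listed genes are not reported here by name.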

Additional observations from a re-analysis of the deposited data

Results flagged for a closer look

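The normalized count of Gria2 in the library labelled TG of mouse T61340, at 5328, lay far below the other TG mice, the next lowest of which had 7773. The gap was 0.543 of the range of the 10 TG mice, above the 95% limit of Dixon's criterion for a group of this size. Of 12 measures searched in the TG mice, the 10 subunits and both ratios, 1 exceeded the limit, and chance alone passes it in about 1 of 20 groups. The limits used here cover groups of up to 10, so the WT group of 11 mice was not searched.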

How the results depend on the processing

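All 330 values of the 10 subunits under the alternatives kept their direction, and 304 kept their side of the threshold. Leaving out each mouse in turn, 6 to 9 subunits were called, with 5 to 7 lower and 1 to 2 higher, 7805 to 8363 genes differed in all, and 27 to 31 genes of the pathway lists were called. In those fits the test of the interaction gave 0 to 1 gene, the log2 ratio of Grin2a to Grin2b differed by -0.13 to -0.089 and that of Gria1 to Gria2 by -0.212 to -0.116. Batch A alone gave 2195 genes, 2 subunits, 8 genes of the pathway lists and a difference of -0.0062 in the ratio of Grin2a to Grin2b. The ratio of Gria1 to Gria2 passed as a difference of medians (-0.155, exact permutation p = 0.0372). Scaling by library size alone moved the median log2 fold change of all genes to 0.076 and gave 2752 lower and 5832 higher genes in place of 3964 and 4190. The level of Xist, added after the data had been seen, left 7997 genes called and brought Gria4 past the threshold (edgeR adjusted p = 0.0459). No paired analysis was possible because the mice share no replicate numbers. The cause of these shifts was not tested. Depth was similar in all mice and 3 counts correspond to about 3 normalized counts, so that depth limits Grin3b and no subunit tested.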
